A study of Mus musculus with 15 samples.

Results

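The 10 genes described here, Ldha, Slc16a1, Acot7, Oat, Mgst1, Igfbp4, Cxcl12, Pdgfra, Smad3 and Cat, belong to the so-called beta cell disallowed genes. They were taken by gene name from a table of 38283 genes, and all 10 were found, each in 1 row. RNA had been sequenced from 15 samples of sorted islet cells of C57BL/6 mice, none of them treated, and no age is given in the labels. Glu-Venus mice, which carry the Venus fluorophore under the proglucagon promoter, gave the 5 alpha cell and 4 beta cell samples. Beta cells were the Venus-negative cells with high scatter and autofluorescence, so no reporter marked them. The 6 delta cell samples came from mice of genotype Sst-CreXROSA26EYFP/EYFP, in which Cre expressed from the somatostatin gene switches on EYFP. Each sample pooled the islets of several mice, so that replicates are pools, and nothing in the labels says which pools were sorted together. Mouse line and cell type cannot be told apart in any comparison with delta cells.

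Disallowed genes are housekeeping or signalling genes that most tissues use and that beta cells keep at unusually low levels. The best known pair is Ldha, the A subunit of lactate dehydrogenase, and Slc16a1, which encodes the plasma membrane lactate and pyruvate carrier MCT1. With little of either, pyruvate made from glucose passes into the mitochondria, and pyruvate or lactate from the blood, which rises in exercise, does not trigger insulin release. The set was defined by setting islets or beta cells against other tissues, and the comparison made here asks whether the low levels are particular to beta cells or shared with their alpha and delta cell neighbours.

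Values are FPKM, fragment numbers corrected for transcript length and for the mapped total of each sample, as deposited. Differences are between means of log2(FPKM + 1), written as the first cell type minus the second, with the standard error (SE) or the 95% confidence interval, and were tested with limma over the 14405 genes that averaged more than 1 FPKM in some cell type. An adjusted p under 0.05 was taken as a call. On this scale the change of a low gene is understated. The number of reads could be judged in 5 samples (alpha 2 and delta 1 to 4) and lay between 7.43 and 30.5 M, while the depth of the other 10 samples, including every beta cell sample, is unknown. A value of 0 is therefore given as listed at 0, with no detection limit. None of 18 widely expressed genes was listed at 0 in any sample. In these bulk samples, fewer cells of a type and less RNA per cell cannot be told apart.

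The sorted populations matched their labels by hormone genes. Mean Gcg in beta and delta cells was 0.233% (0.0886% without beta 2) and 0.189% of its alpha cell mean, mean Ins2 in alpha and delta cells was 1.87% and 1.95% of its beta cell mean (3.06% and 3.19% without beta 3), and mean Sst in alpha and beta cells was 0.992% and 0.101% (0.0406% without beta 2) of its delta cell mean. Ppy, the pancreatic polypeptide gene, was at 17728 to 41392 FPKM in alpha, 10857 to 48600 in delta and 16.9 to 98.1 in beta cells. The summed FPKM of 10 acinar markers ranged from 0.265 to 94.2 in alpha, from 0.102 to 15.8 in beta and from 3.14 to 565 in delta cells. Sums over 10 mesenchymal markers were 3.11 to 5.37, 0.138 to 1.06 and 1.41 to 3.36 in the same order, and the fibroblast collagen Col1a1 was listed at 0 in every sample. Its partner chain Col1a2 was at 0.848 to 3.79 FPKM in all 5 alpha cell samples, at most 0.00687 FPKM in beta and at most 0.0576 FPKM in delta cells, and was called lower in beta than in alpha cells (adjusted p = 0.00677). Col1a2 entered the test only through alpha cells, so this difference was in part set by the filter. Against delta cells, 3 other markers were called lower in beta cells, the endothelial Egfl7 (-2.83, adjusted p = 0.00260), the ductal Sox9 (-1.11, adjusted p = 0.0174) and the matrix gene Sparc of the mesenchymal list (-1.22, adjusted p = 0.0123), each in every alternative in which it was tested, and Sox9 and Sparc entered the test only through delta cells. The 7 ductal markers summed to 40.5 to 184, 14.3 to 33.2 and 37.9 to 108, the 8 endothelial markers to 1.54 to 5.38, 0.642 to 5.48 and 9.98 to 29.8, the 8 immune markers to 0.999 to 4.46, 2.43 to 16.1 and 1.57 to 5.50, and the 5 glial markers to 1.76 to 7.20, 0.822 to 4.00 and 1.66 to 9.46. Summed FPKM of 85 ribosomal protein genes split the samples, with alpha 1 to 3, beta 2 and delta 1 and 2 above 50000 and the other 9 below, and means within these sets are given for Ldha, Slc16a7, Oat and Acot7. This split entered 2 of the alternatives, as a covariate and by use of the lower set alone. The part of other cells in the results was not tested.

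Most of the 10 genes were near or below 1 FPKM in beta cells, as were most genes of the table, and the neighbouring cells were not uniformly higher. The mean was below 1 FPKM in beta cells for 9 of the 10, Cat being the exception at 1.01 ± 0.903 FPKM (SD, n = 4) and at 0.586 FPKM without beta 2, and every beta cell sample was below 1 FPKM for 8 of the 10. Over all 38283 genes these shares were 70.2% and 65.5%. The mean was lowest in beta cells, without a tie, for 5 of the 10, beside 24.9% of all genes. Slc16a1, Cxcl12 and Pdgfra stayed under 1 FPKM on average in all 3 cell types and were not tested, which leaves 7. Of these, Ldha and Acot7 entered the test only through delta cells and Mgst1 and Igfbp4 only through alpha cells, so a difference from the cell type that carried them in was to some extent set by the filter. The beta cell mean was below 1 FPKM for 6 of the 7 and every beta cell sample was below 1 FPKM for 5 of them, beside 20.8% and 14.3% of the 14405 genes tested, and the mean was lowest in beta cells for 4 of the 7, beside 44.7%. Since a gene low in beta cells passes only through another cell type, these shares are given as a description. Against alpha cells, 1 of the 7 was called lower in beta cells (Oat), beside 4.82% of all genes tested. Against delta cells, 4 of the 7 were called lower (Ldha, Acot7, Oat and Cat), beside 11.7% of all genes tested. None was called higher in beta cells in either comparison, beside 2.84% and 2.99% of all genes tested. In all, 7.66%, 14.7% and 6.81% of genes were called in either direction for beta versus alpha, beta versus delta and delta versus alpha cells. Oat alone was called lower in beta cells than in both neighbours, beside 2.94% of all genes tested. Between the neighbours, Acot7 and Cat were called higher in delta than in alpha cells (background 5.33%) and Oat and Mgst1 lower (background 1.48%). Ldha, Acot7, Oat and Cat had every beta cell sample below every delta cell sample (12.3% of all genes tested did so) and none had every beta cell sample above (2.62%), while Acot7 and Cat had every delta cell sample above every alpha cell sample (4.97%). Each pair of comparisons shares the samples of 1 cell type, so the 3 sets of calls are not independent.

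**Figure D1:**
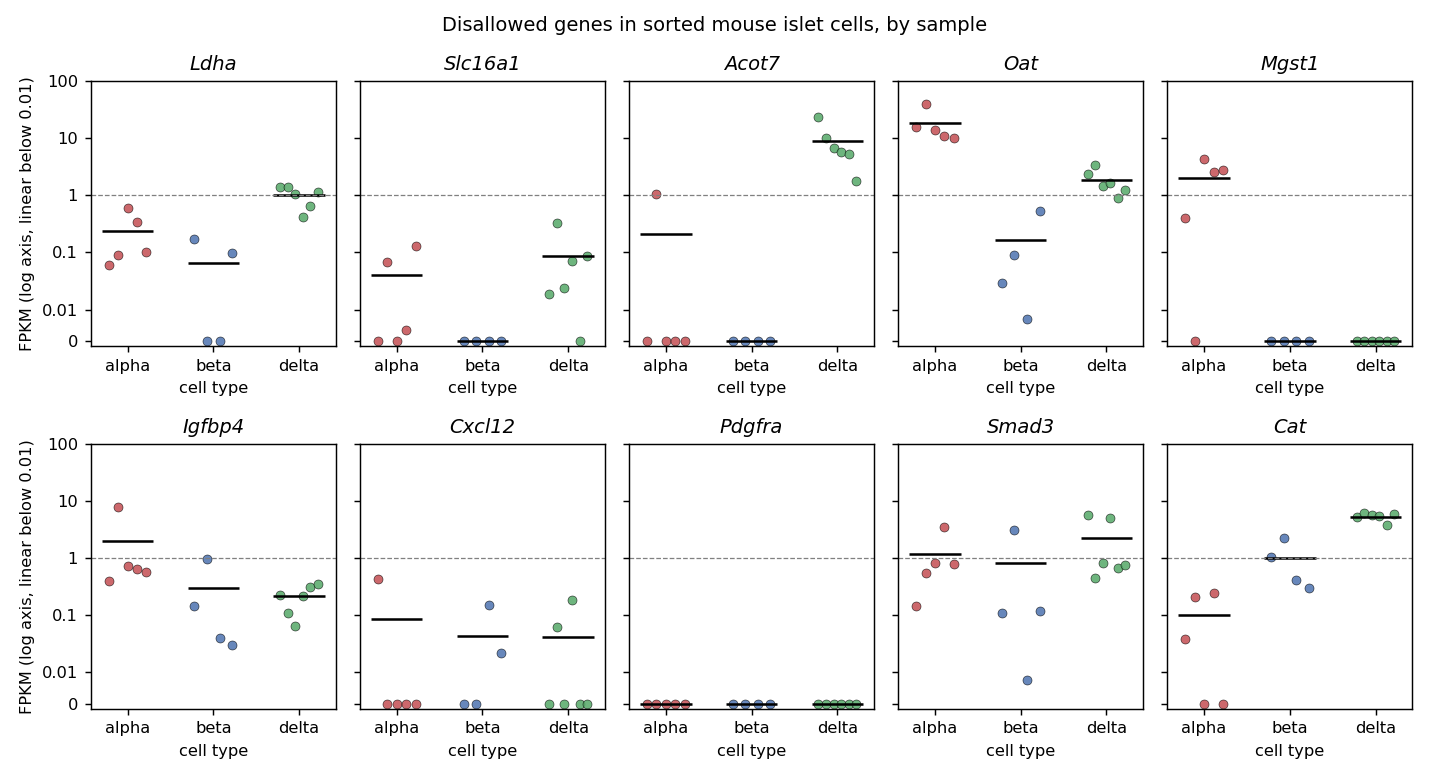
FPKM of each of the 10 genes by cell type on a log axis that is linear below 0.01; each point is a sample (alpha n = 5, beta n = 4, delta n = 6), the black bar is the mean and the dashed line marks 1 FPKM. Acot7, Cat and Ldha sit highest in delta cells and Oat in alpha cells, while Pdgfra is at 0 in all 15 samples.

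**Figure D2:**
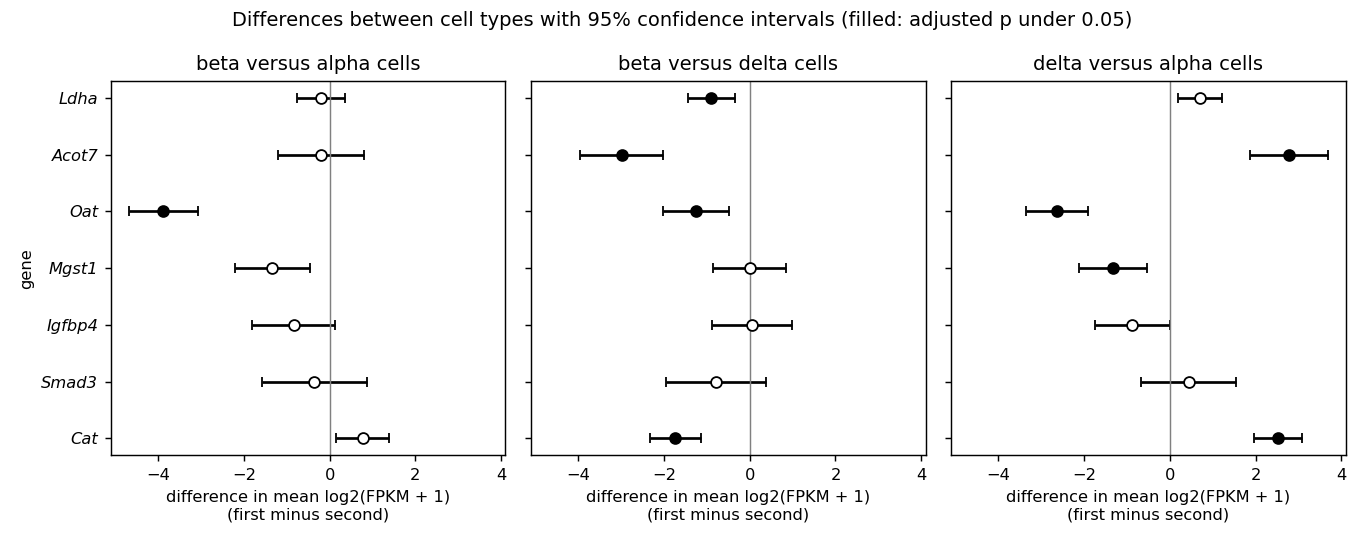
Difference in mean log2(FPKM + 1) for the 7 tested genes in each comparison (first cell type minus second), with 95% confidence intervals; filled points have an adjusted p under 0.05. Oat is the only gene with a filled point left of 0 in both panels that involve beta cells.

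The lactate pair was considered first. Ldha (ENSMUSG00000063229, chr7:46841475-46855627, plus strand, GRCm38) and Slc16a1 (ENSMUSG00000032902, chr3:104638668-104658462, plus strand) were also the only members whose promoter window held ACGTG, the core shared by the E-box CACGTG and the hypoxia response element. The windows are the 250 bases before each RefSeq start (GRCm38.p6). The window of Oat, the gene called lower in beta cells than in both neighbours, is shown beside them as a promoter without a match. Capitals mark stretches with ACGTG on either strand (CACGT is the same motif read on the other strand, and CACGTG holds it on both).
Ldha, chr7:46845554-46845803, plus strand: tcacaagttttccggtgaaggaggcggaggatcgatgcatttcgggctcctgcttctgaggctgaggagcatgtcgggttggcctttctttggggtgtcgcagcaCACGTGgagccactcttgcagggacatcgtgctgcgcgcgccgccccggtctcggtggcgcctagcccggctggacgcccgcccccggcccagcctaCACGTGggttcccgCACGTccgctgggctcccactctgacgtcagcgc
Slc16a1, chr3:104638414-104638663, plus strand: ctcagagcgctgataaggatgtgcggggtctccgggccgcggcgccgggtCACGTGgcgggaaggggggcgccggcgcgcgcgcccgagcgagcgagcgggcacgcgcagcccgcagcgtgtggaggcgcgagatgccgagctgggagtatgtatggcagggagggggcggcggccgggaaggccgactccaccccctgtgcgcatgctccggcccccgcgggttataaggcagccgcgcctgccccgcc
Oat, chr7:132576399-132576648, minus strand: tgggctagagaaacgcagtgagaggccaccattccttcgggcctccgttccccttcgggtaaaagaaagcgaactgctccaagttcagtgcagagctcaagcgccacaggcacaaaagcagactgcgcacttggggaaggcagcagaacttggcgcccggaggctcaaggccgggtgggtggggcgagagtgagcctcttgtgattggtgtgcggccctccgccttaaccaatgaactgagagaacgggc
The Ldha window held 3 such stretches, 2 of them the full CACGTG, and the Slc16a1 window held 1, a CACGTG. A second RefSeq start of Ldha, preceded by chr7:46846832-46847081, held none, as did the windows of the other 8 members. The annotated spans of Acot7 and Ldha begin further upstream, at chr4:152178134 and chr7:46841475, and the bases before those positions were not examined. Over all 32851 RefSeq promoter windows of this length, 16.6% held ACGTG and 6.02% held CACGTG. The Ldha and Slc16a1 windows also held 25 and 37 CpG dinucleotides against a median of 6 over all promoters, and the Oat window held 14. These matches describe the sequence and are not evidence of binding in any of these cells.

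Ldha was highest in delta cells and near 0 in beta cells. Beta cell samples 1 to 4 had 0.169, 0, 0 and 0.0966 FPKM, and alpha cell samples 1 to 5 had 0.0600, 0.0888, 0.601, 0.334 and 0.103 FPKM. The 6 delta cell samples had 0.418 at the lowest, a median of 1.10 and 1.42 FPKM at the highest. Every delta cell sample was thus above every beta cell sample, whereas alpha cells overlapped both. Ldha was lower in beta than in delta cells by 0.90 (SE 0.258, adjusted p = 0.0282). As Ldha entered the test only through delta cells, this difference was in part set by the filter. Against alpha cells the difference was -0.20 with an interval from -0.77 to 0.37 (adjusted p = 0.704), and delta cells exceeded alpha cells by 0.70 without a call (0.18 to 1.21, adjusted p = 0.115), although this was called with no filter (adjusted p = 0.0162). The call against delta cells was close to the threshold and held in 13 of the 19 alternatives in which Ldha was tested, with an adjusted p of 0.00319 with no filter. Without delta 1, delta 2 or delta 6, with a filter at 5 FPKM and in the lower ribosomal set alone, Ldha fell under the filter and was not tested. The call was lost without beta 1 (adjusted p = 0.0515), beta 3 (0.0549), beta 4 (0.0618) or delta 3 (0.0530), with quantile normalization (0.0722) and in the fit of beta and delta cells alone (0.0517). Delta cells of the higher ribosomal set averaged 1.41 FPKM of Ldha and those of the lower set 0.818 FPKM. Short reads limit these values further, since 16.6% of the 50-base words of the longest Ldha transcript also occur in 14 other annotated genes, 9 of which are in the table at up to 0.448 FPKM.

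Ldhb encodes the other main subunit of lactate dehydrogenase, which favours the conversion of lactate to pyruvate. Ldhb was above Ldha in every sample on the length-scaled FPKM level, at 6.93 ± 3.34 (SD, n = 5) in alpha, 9.32 ± 4.66 (n = 4) in beta and 5.05 ± 1.89 FPKM (n = 6) in delta cells, and no difference in Ldhb was called in any comparison. The share of Ldha in the sum of both subunits does not depend on scaling between samples. It was 3.70 ± 2.73% in alpha, 1.05 ± 1.34% in beta and 18.1 ± 9.63% in delta cells. The beta cell share rested on beta 1, being 0 in 2 of 4 samples and 0.473% on average without beta 1. In delta cells it ran from 7.61% to 35.8%, above the highest share in alpha cells (7.11%) and in beta cells (2.801%). Two-sided exact permutation tests over the samples gave p = 0.00952 for beta against delta cells and p = 0.00433 for delta against alpha cells, in each case the smallest value these sample numbers allow, and p = 0.127 for beta against alpha cells. Adjusted over 6 tests, 3 of this share and 3 of a share of transporters, the exact p-values became 0.0286, 0.0260 and 0.190.

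Slc16a1 was barely detected in any islet cell type. It was listed at 0 in all 4 beta cell samples, in 2 of 5 alpha cell samples and in 1 of 6 delta cell samples. The alpha cell samples that had a value lay at 0.0687, 0.00347 and 0.129 FPKM, and the highest delta cell sample at 0.323 FPKM. In the 5 samples with a resolved depth, the Slc16a1 values correspond to between 0.868 and 13.8 reads, the highest in delta 2. Over all genes with no filter the beta minus delta difference was -0.11 with an interval from -0.26 to 0.03 (adjusted p = 0.360), and that between beta and alpha cells was -0.06 (-0.20 to 0.09, adjusted p = 0.752). A low level was thus common to the 3 cell types, and differences between them were not detectable at these levels.

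Other monocarboxylate carriers were examined beside it. Slc16a3, which encodes the lactate exporter MCT4 of glycolytic tissues, was listed at 0 in every sample but beta 1, which had 0.0188 FPKM. Slc16a7, which encodes the high-affinity pyruvate carrier MCT2, was prominent in delta cells. Its lowest, median and highest delta cell samples had 4.47, 12.96 and 21.2 FPKM, against 0.301, 1.04 and 1.82 FPKM in alpha cells, and the 4 beta cell samples had 0, 0, 0.00937 and 0.0273 FPKM. The 3 cell types did not overlap. Slc16a7 was lower in beta than in delta cells by 3.68 (SE 0.352, adjusted p = 3.33e-06) and higher in delta than in alpha cells by 2.66 (SE 0.330, adjusted p = 5.86e-05), whereas the beta minus alpha difference of -1.02 was not called (adjusted p = 0.102), although it was called with a pseudocount of 0.1 (adjusted p = 0.000752) and under either scaling. Delta cells averaged 18.0 FPKM of Slc16a7 in the higher ribosomal set and 10.51 FPKM in the lower set, within which delta cells still exceeded beta cells by 3.41 (adjusted p = 0.000652). The share of Slc16a1 in the 3 carriers was 2.65 ± 3.43% in alpha (1.66% without alpha 5) and 0.707 ± 0.791% in delta cells, and 0% in the 3 beta cell samples where it was defined. No exact permutation test of this share reached 0.05 (p = 0.357, 0.0952 and 0.320 for beta against alpha, beta against delta and delta against alpha cells). Of 12 tested genes of a lactate and pyruvate list, Emb, encoding a chaperone of these carriers, and Pcx, encoding pyruvate carboxylase, were called higher in beta than in alpha cells, and Bsg, encoding the other chaperone, lower. The Emb call (adjusted p = 0.0432) held in 9 of 24 alternatives and in 3 of the 15 that left out a sample, and that of Bsg in 16 of 24. Pcx entered the test only through beta cells. Against delta cells Pcx was called higher and Slc16a7 and Bsg lower. Pcx was at 3.11 ± 2.10 FPKM in beta, 0.333 ± 0.204 in alpha and 0.612 ± 0.339 in delta cells.

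**Figure D3:**
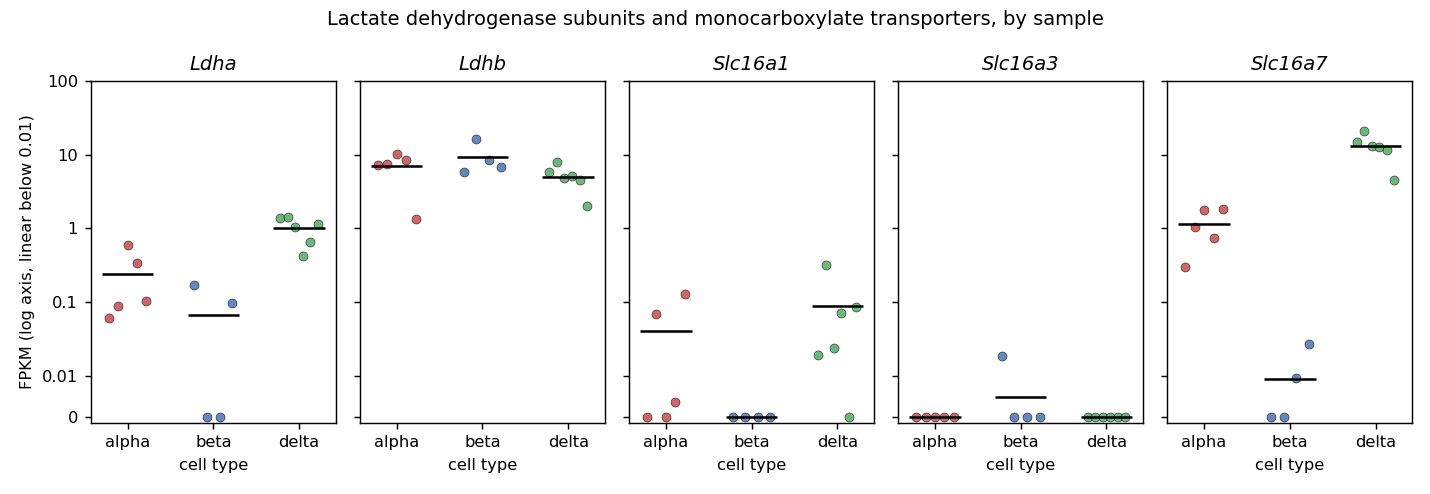
FPKM of the lactate dehydrogenase subunits Ldha and Ldhb and of the monocarboxylate carriers Slc16a1, Slc16a3 and Slc16a7 by cell type, on a log axis that is linear below 0.01; points are samples and bars are means. Ldhb overlaps between the 3 cell types, at means of 5.05 to 9.32 FPKM, while Slc16a7 runs from at most 0.0273 FPKM in beta cells to 4.47 to 21.2 FPKM in delta cells.

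The genes whose pattern over the 15 samples was most like that of Ldha, by Pearson correlation of log2(FPKM + 1), were Nrxn2 (r = 0.93), Rac3 (0.93), 5330426P16Rik (0.92), Kctd8 (0.91) and Lhfpl5 (0.90). For Slc16a1 they were Spats1 (0.91), U6 (0.88), Zfp446 (0.88), Plec (0.86) and n-R5s173 (0.86), from values that were nearly all close to 0. Each point in these correlations is a library of 1 of the 3 cell types, so they mix differences between cell types with differences between libraries.

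Oat showed the widest gap of the set. It encodes ornithine aminotransferase, the mitochondrial enzyme that converts ornithine and 2-oxoglutarate to glutamate semialdehyde and glutamate (ENSMUSG00000030934, chr7:132557478-132576398, minus strand, GRCm38, within the span of Fgfr2 but sharing no exon with it). Alpha cell samples 1 to 5 had 15.5, 40.4, 14.0, 11.04 and 10.1 FPKM, beta cell samples 1 to 4 had 0.0294, 0.0884, 0.00696 and 0.527 FPKM, and delta cells ran from 0.906 through a median of 1.55 to 3.38 FPKM. None of the 3 cell types overlapped another. Oat was the only member with every beta cell sample below every alpha cell sample (5.07% of all genes tested did so), and mean Oat was 112-fold higher in alpha than in beta cells and 9.94-fold higher than in delta cells. The first of these folds rested on beta 4, the highest beta cell sample, and was 438 without it. The beta minus alpha difference was -3.88 (SE 0.379, adjusted p = 5.78e-06) and was called in all 24 alternatives, at adjusted p-values up to 0.000615. Delta cells were lower than alpha cells by 2.63 (SE 0.342, adjusted p = 8.91e-05).

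The step from beta to delta cells in Oat was less secure. The difference was -1.25 (SE 0.365, adjusted p = 0.0301), and it was called in 17 of 24 alternatives. It was lost without beta 1 (adjusted p = 0.0820), beta 3 (0.0667), delta 1 (0.0648), delta 2 (0.0584) or delta 4 (0.0524), with a filter at a mean of 5 FPKM (0.0512) and with quantile normalization (0.0521). Mean Oat in beta cells was 0.895% of the alpha cell mean, where the glucagon gene stood at 0.233%, but this order turned without beta 4 (0.229% for Oat and 0.274% for Gcg), and the Gcg value rested on beta 2 (0.0886% without it). In the same terms mean Oat in delta cells was 10.1%, where the glucagon gene stood at 0.189%. The part of alpha cell RNA in these values was not tested. Mean Oat was also higher in the higher ribosomal set than in the lower one, at 23.3 against 10.6 FPKM in alpha and 2.89 against 1.30 FPKM in delta cells. Within the lower set alone the beta cells were below alpha cells by 3.31 (adjusted p = 0.000615) and below delta cells by 0.97 (adjusted p = 0.0298).

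Aldh4a1, a gene next to Oat in ornithine and proline metabolism, was also low in beta cells. It encodes the dehydrogenase that takes glutamate semialdehyde on to glutamate. Aldh4a1 was at 0.588 ± 0.170 FPKM in beta, 3.18 ± 0.924 in alpha and 4.99 ± 2.74 in delta cells, and every beta cell sample was below every alpha and every delta cell sample. The beta minus alpha difference was -1.37 (SE 0.316, adjusted p = 0.0142), called in 22 of 23 alternatives, and the beta minus delta difference was -1.82 (SE 0.304, adjusted p = 0.000717), called in all 23. Aldh18a1 and Pycr1, which lead from glutamate to proline, and the ornithine decarboxylase gene Odc1 were not called in either comparison with beta cells. Their beta cell means were 32.7, 6.98 and 16.3 FPKM. Pycr1 lay close to the threshold against delta cells (1.37, adjusted p = 0.0582) and was called higher in beta cells in 5 of 24 alternatives, among them both scalings.

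**Figure D4:**
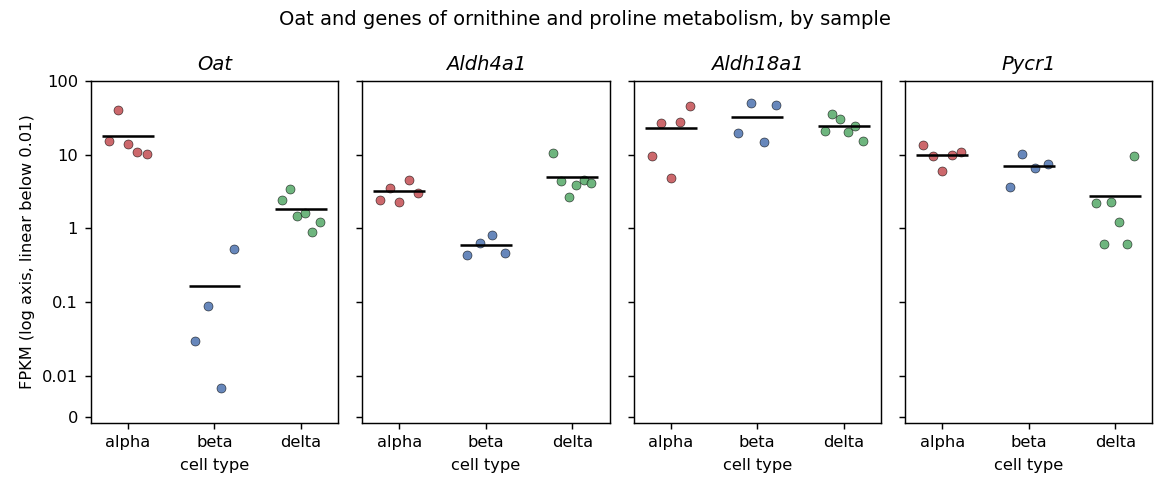
FPKM of Oat and of 3 genes of ornithine and proline metabolism by cell type, on a log axis that is linear below 0.01; points are samples and bars are means. Oat and Aldh4a1 have every beta cell sample below every alpha and delta cell sample, whereas Aldh18a1 and Pycr1, shown as genes not called in a comparison with beta cells in the fit as described, overlap. Pycr1 was called higher in beta than in delta cells in some alternatives, both scalings among them.

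Acot7 was highest in delta cells. It encodes a cytosolic acyl-CoA thioesterase best known from brain, which hydrolyses long-chain acyl-CoA (ENSMUSG00000028937, chr4:152178134-152271855, plus strand). Delta cells had 1.80 FPKM at the lowest, a median of 6.18 and 23.9 FPKM at the highest, while Acot7 was listed at 0 in all 4 beta cell samples and in 4 of 5 alpha cell samples. The remaining alpha cell sample, alpha 2, had 1.04 FPKM and still lay below every delta cell sample. The difference was -2.99 (SE 0.453, adjusted p = 0.000317) for beta minus delta cells and 2.78 (SE 0.425, adjusted p = 0.000426) for delta minus alpha cells, and both were called in all 24 alternatives. Since Acot7 entered the test only through delta cells, both differences were in part set by the filter. Beta and alpha cells were not distinguishable (-0.21, interval from -1.20 to 0.79, adjusted p = 0.845). Among delta cells, samples 1 and 2 of the higher ribosomal set averaged 17.0 FPKM and the other 4 averaged 4.85 FPKM.

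Of 7 tested genes of 11 other acyl-CoA thioesterases, Acot1, Acot2 and Acot8 were called lower in beta than in delta cells. Acot1, the cytosolic long-chain enzyme, was at 0.00358 ± 0.00715 FPKM in beta cells, being listed at 0 in 3 of 4 samples, at 0.887 ± 0.434 in alpha and at 2.31 ± 0.924 in delta cells. The peroxisomal Acot8 was the only list member called lower in beta than in alpha cells (-1.48, adjusted p = 0.0225), in 18 of 24 alternatives. Acot11 was called higher in beta than in alpha cells (2.44, adjusted p = 0.000506), with 6.19 ± 3.42 against 0.235 ± 0.237 FPKM (0.144 FPKM without alpha 5). Acot1 entered the test only through delta cells.

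Cat was the member that beta cells expressed most on the FPKM scale. It encodes catalase, the peroxisomal enzyme that breaks down hydrogen peroxide (ENSMUSG00000027187, chr2:103453849-103485160, minus strand). Beta cell samples 1 to 4 had 1.04, 2.27, 0.414 and 0.304 FPKM. Alpha cell samples 1 to 5 had less still, at 0.0381, 0.210, 0, 0.246 and 0 FPKM, and delta cells had 3.76 FPKM at the lowest, a median of 5.52 and 6.11 FPKM at the highest. The 3 cell types did not overlap, and Cat was the only member with every beta cell sample above every alpha cell sample (3.05% of all genes tested did so). Mean Cat in delta cells was 5.28-fold that in beta cells, or 9.08-fold without beta 2, and 53.8-fold that in alpha cells, or 85.9-fold without alpha 4. Cat was lower in beta than in delta cells by 1.74 (SE 0.281, adjusted p = 0.000543) and higher in delta than in alpha cells by 2.52 (SE 0.263, adjusted p = 1.00e-05), and these were called in all 24 alternatives. The beta minus alpha difference of 0.78 (interval from 0.16 to 1.39) was not called (adjusted p = 0.121), but was called with a pseudocount of 0.1 (2.34, adjusted p = 0.0181), with median-ratio size factors (0.85, adjusted p = 0.0374) and with quantile normalization (0.90, adjusted p = 0.0303).

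Other genes of hydrogen peroxide handling set Cat in context, all 14 of them tested. Gpx3, Prdx2 and Prdx5 were called lower in beta than in alpha cells, and Gpx1, Gpx3, Sod1, Txnrd1 and Pex14 lower than in delta cells, with none called higher. The calls against alpha cells held in 14 of 24 alternatives for Prdx2 and 18 of 24 for Prdx5, and those against delta cells in 19 of 24 for Txnrd1 and 22 of 24 for Sod1. The widest gap of these was in Gpx3, the secreted glutathione peroxidase, at 7.75 ± 7.34 FPKM in beta, 714 ± 469 in alpha and 762 ± 201 in delta cells (adjusted p = 3.61e-06 and 8.30e-07 for beta cells against each). The beta cell mean rested on beta 2 and was 4.09 FPKM without it, and both calls held in all 24 alternatives. No gene of this list was called between delta and alpha cells, whereas Cat was.

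Mgst1 was listed at 0 in all 4 beta cell and all 6 delta cell samples. It encodes a microsomal glutathione transferase with peroxidase activity (ENSMUSG00000008540, chr6:138140316-138156755, plus strand). Alpha cell samples 1 to 5 had 0.406, 0, 4.39, 2.57 and 2.803 FPKM, so that 4 of 5 were above every sample of the other cell types. The delta minus alpha difference was called (-1.34, SE 0.375, adjusted p = 0.0406) and the beta minus alpha difference of the same size, with fewer samples, was not (SE 0.415, adjusted p = 0.0612). Mgst1 entered the test only through alpha cells, so both differences were in part set by the filter. Neither side of the threshold was firm. The delta cell call held in 10 of 23 alternatives and in 4 of 15 fits without a given sample, reaching an adjusted p of 0.120 without alpha 3, and the beta cell difference was called in 7 of 23, among them both scalings and the fit without alpha 2 (adjusted p = 0.0123). The related Mgst3 was present in all cell types, at 14.96 ± 11.6 FPKM in alpha, 2.91 ± 2.99 in beta and 12.2 ± 6.08 in delta cells, and was called lower in beta than in delta cells (-1.92, adjusted p = 0.0375) in 16 of 24 alternatives. The beta cell mean of Mgst3 was 1.47 FPKM without beta 2. Among the 9 tested genes of a list of glutathione transferases, Gstm1 and Gstm2 were called higher in beta than in alpha cells, in 15 and 11 of 24 alternatives. Gstm2 was also higher than in delta cells, and Mgst3, Gstp1, Gsta4 and Gstt1 were lower. Gsta4, which clears lipid peroxidation products, was listed at 0 in all 4 beta cell samples and was at 2.63 to 19.2 FPKM in delta cells.

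The members that encode secreted or signalling proteins were mostly low, and no difference between cell types was called for them in the fit as described. Igfbp4 encodes a secreted binding protein that restrains insulin-like growth factors (ENSMUSG00000017493, chr11:99041244-99054392, plus strand). Alpha cell samples had 0.396, 7.74, 0.719, 0.642 and 0.574 FPKM, beta cell samples had 0.142, 0.972, 0.0403 and 0.0297 FPKM, and delta cells had between 0.0635 and 0.348 FPKM with a median of 0.221 FPKM. Every alpha cell sample exceeded every delta cell sample (1.67% of all genes tested did so), yet no difference was called (beta minus alpha -0.83, interval from -1.80 to 0.13, adjusted p = 0.293, and delta minus alpha -0.88, interval from -1.75 to -0.01, adjusted p = 0.293). The alpha cell mean of 2.01 FPKM rested on alpha 2. Beta and delta cells differed by 0.04 (-0.89 to 0.98, adjusted p = 0.969), and the sign of this difference turned without beta 2 (-0.18) and with a pseudocount of 0.1 (-0.17). Of 5 tested genes of 11 in the insulin-like growth factor list, Igfbp7 alone was called in a comparison with beta cells, at 26.5 ± 8.74 FPKM against 201 ± 52.2 in delta cells (adjusted p = 0.00273). Igf2 was called higher in beta than in alpha cells in 4 of 23 alternatives, both scalings among them.

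Cxcl12 encodes the chemokine ligand of the receptor CXCR4 (ENSMUSG00000061353, chr6:117168535-117181367, plus strand). It was listed at 0 in 4 of 5 alpha, 2 of 4 beta and 4 of 6 delta cell samples, and the highest sample of each cell type had 0.428, 0.153 and 0.188 FPKM. Its receptor gene Cxcr4 was listed at 0 in every alpha and beta cell sample and reached 0.117 FPKM in delta cells. With no filter, the Cxcl12 differences were between -0.05 and 0.00 with intervals inside -0.26 to 0.21, and none was called. Dpp4, encoding a peptidase that cleaves the chemokine, was the only gene of this list that was tested, at 35.6 ± 25.1 FPKM in beta, 15.5 ± 7.07 in alpha and 30.1 ± 4.85 in delta cells, with no call in the fit as described. Dpp4 was called higher in beta than in alpha cells under either scaling (adjusted p = 0.0117 and 0.0228) and higher in delta than in alpha cells with quantile normalization (0.0283).

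Pdgfra encodes a receptor for platelet-derived growth factors that marks mesenchymal cells (ENSMUSG00000029231, chr5:75152292-75198215, plus strand). It was listed at 0 in all 15 samples, so no comparison between cell types was possible. Its exons overlap the antisense genes Gm42802 and Gm42803, and the library kit does not mark strand. The sister receptor gene Pdgfrb was listed at 0 in every alpha and beta cell sample and was at most 0.0381 FPKM in delta cells. Among ligands, Pdgfa was at 7.34 ± 4.75 FPKM in beta, 4.26 ± 2.42 in alpha and 6.17 ± 1.74 in delta cells with no call. Pdgfb was listed at 0 in every alpha and every beta cell sample and was at 1.14 to 2.06 FPKM in all 6 delta cell samples (beta minus delta -1.30, adjusted p = 0.000955). Pdgfb entered the test only through delta cells, so this difference was in part set by the filter.

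Smad3 encodes a transcription factor that carries the signal of TGF-beta and activin receptors to the nucleus (ENSMUSG00000032402, chr9:63646767-63757994, minus strand). Alpha cell samples had 0.143, 0.547, 0.821, 3.54 and 0.791 FPKM, beta cell samples had 0.110, 3.10, 0.00772 and 0.117 FPKM, and delta cells had 0.443 FPKM at the lowest, a median of 0.782 and 5.66 FPKM at the highest. All cell types overlapped and none of the differences was called, the widest being -0.79 for beta minus delta cells (-1.97 to 0.39, adjusted p = 0.380). In beta cells, 3 of 4 samples were below every alpha and delta cell sample, and the fourth, beta 2, was above 4 of 5 and 4 of 6 of them. The partner Smad genes were present throughout, with Smad2 at 12.7 ± 5.13 and Smad4 at 48.4 ± 26.1 FPKM in beta cells and no call in any comparison. Of 10 tested genes of 14 in this pathway, Tgfb2 was called lower in beta than in alpha cells (listed at 0 in all beta cell samples against 0.510 to 2.65 FPKM), and Smad1 and the inhibitory Smad7 lower than in delta cells. Tgfb2 entered the test only through alpha cells, so its difference from them was in part set by the filter. The Smad7 call (adjusted p = 0.0350) held in 10 of 23 alternatives and was lost under both scalings, with size factors at an adjusted p of 0.0525 and with quantile normalization at 0.114.

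A further 13 genes of the disallowed list were examined to place the 10 members, and 10 of them passed the filter. Against alpha cells 1 was called higher in beta cells (Cd44, background 2.84%) and 1 lower (Zyx, background 4.82%), with a median difference of -0.76 beside -0.13 over all genes tested. Against delta cells 5 were called lower (Zfp36l1, Tgm2, Arap2, Cd44 and Zyx) and none higher, beside 11.7% and 2.99% of all genes tested, with a median of -0.74 beside -0.30. Zfp36l1 and Tgm2 entered the test only through delta cells, so their difference from them was in part set by the filter, and the Tgm2 call held in 7 of 22 alternatives. Between delta and alpha cells Zfp36l1, Tgm2 and Cd44 were called higher (background 5.33%) and none lower (background 1.48%), with a median of 0.07 beside 0.13. Zyx, which encodes the focal adhesion protein zyxin, was the only 1 of the 13 called lower in beta cells than in both neighbours, at 0.384 ± 0.343 FPKM in beta, 2.72 ± 1.84 in alpha and 3.09 ± 1.44 in delta cells. The beta cell mean of Zyx was 0.212 FPKM without beta 2. Its call against alpha cells (adjusted p = 0.0489) held in 8 of 23 alternatives.

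Several of these genes were ordered like Cat or Acot7. Cd44, which encodes a hyaluronan receptor, was at 0.447 ± 0.537 FPKM in alpha, 6.98 ± 2.42 in beta and 36.3 ± 11.7 in delta cells with no overlap, the alpha cell mean being 0.210 FPKM without alpha 5. Beta cells exceeded alpha cells by 2.46 (adjusted p = 0.00101) and were below delta cells by 2.19 (adjusted p = 0.00111). Zfp36l1, encoding an mRNA decay factor, was at 3.18 ± 1.93 FPKM in delta cells, 0.179 ± 0.301 in alpha and 0.0236 ± 0.0293 in beta cells, the alpha cell mean being 0.0455 FPKM without alpha 5 and the beta cell mean 0.00951 FPKM without beta 1. Arap2 was listed at 0 in all 4 beta cell samples and was at 0.0174 to 2.41 FPKM in alpha and 0.219 to 6.35 FPKM in delta cells. The list also held Hk1, which encodes the widely expressed hexokinase that phosphorylates glucose at low concentrations. Hk1 was listed at 0 in all 4 beta cell samples, was at 0.206, 0.643, 3.09, 5.45 and 4.50 FPKM in alpha cells, and in delta cells ranged from 0 to 2.25 FPKM. The beta minus alpha difference of -1.63 in Hk1 lay just outside the threshold (SE 0.487, adjusted p = 0.0516) and was called in 8 of 23 alternatives. Hk1 entered the test only through alpha cells, so this difference too was in part set by the filter.

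**Figure D5:**
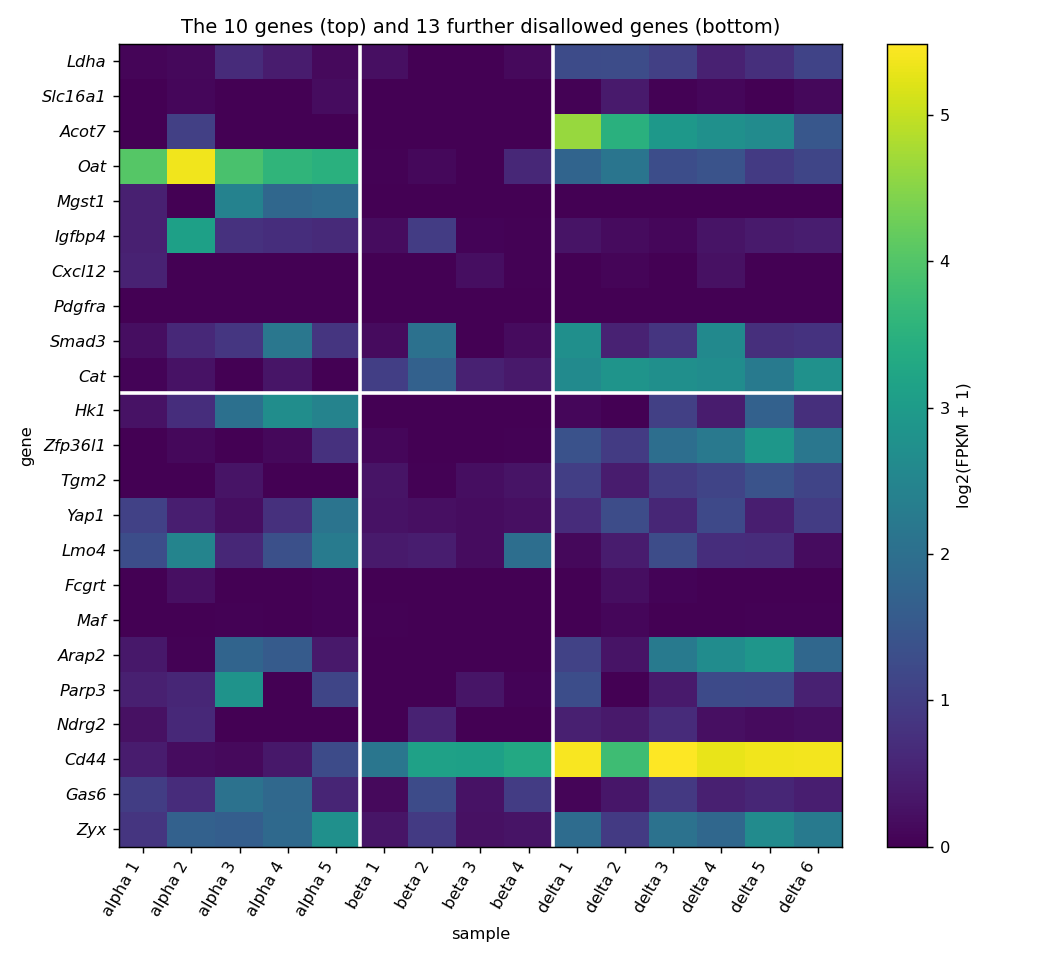
log2(FPKM + 1) of the 10 genes (above the white line) and of 13 further disallowed genes (below it) in each of the 15 samples, darker being lower. The 4 beta cell columns are dark in most rows, Cd44 being their brightest row at 3.44 to 8.91 FPKM, and delta cell columns are brighter than beta cell columns in Acot7, Cat, Zfp36l1 and Cd44.

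Scaling between samples changed the backdrop of these counts. With median-ratio size factors the median difference over all genes moved by 0.13 for beta minus alpha, 0.28 for beta minus delta and -0.12 for delta minus alpha cells, and the share of calls that were higher in beta cells went from 37.0% to 52.6% against alpha cells and from 20.4% to 48.4% against delta cells. Under these size factors Oat, Acot7, Cat and Ldha were still called lower in beta than in delta cells and Oat lower than in alpha cells, joined by Mgst1. Of the 14405 genes tested, 1379 were then called lower than in delta cells and 983 lower than in alpha cells. With quantile normalization Acot7 and Cat remained called against delta cells, beside 1464 genes called lower, and Oat and Ldha did not. Cat was called higher in beta than in alpha cells under either scaling, beside 1092 genes with size factors and 988 with quantile normalization.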

How the data were processed

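RNA of sorted islet cells was amplified with a NuGEN kit that does not mark strand and sequenced as single reads. The authors aligned reads to GRCm38 and deposited Cufflinks values as FPKM, 1 column per sample for 38283 genes. The submitters' processing notes name TopHat2 2.0.8, Cufflinks 2.2.1 and edgeR, and the study's methods give another TopHat version. The edgeR comparison rested on read counts, which were not used here, and any scaling between libraries is not given in the sources used here.

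Members were matched by gene name. Members and gene lists were chosen with earlier results of these data known. Named genes are the 10 members, list genes called in a comparison with beta cells or related to a member, and the 5 genes most correlated with Ldha and with Slc16a1; Odc1, Aldh18a1, Pycr1, Hk1, Pdgfa, Dpp4, Cxcr4, Smad2, Smad4 and Slc16a3 are list genes named as context after their values were seen. limma 3.58.1 in R 4.3.3 (lmFit, eBayes with trend) was run on log2(FPKM + 1) of all 15 samples in 1 fit, with a mean per cell type and no covariate, over 14405 genes with a mean above 1 FPKM in a cell type, and Benjamini-Hochberg adjusted. The fit was tested on simulated data in which 200 of 14405 genes changed by a log2 value of 3 in beta cells. It recovered 84% of them against alpha and 86% against delta cells, with 4 and 9 false calls. Smaller differences were not simulated, so this does not bear on the power for them. Shares of FPKM were tested by exact permutation in SciPy 1.17.1, with Python 3.11.15, numpy 2.4.6, pandas 2.3.3 and matplotlib 3.10.9 for the rest. As p-values rest on pools of mice, they measure the spread between pools.

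Depth was judged from the low FPKM values of genes with 1 transcript, which fall on steps of whole reads where they can be resolved. The limit of 50000 FPKM for the ribosomal split was set, and the 18 widely expressed genes were listed, after the values were seen. Gene positions are from GENCODE M21 (GRCm38) and promoters from RefSeq (GRCm38.p6), in which all 10 members matched. Some list genes are not reported here. Alternatives were a pseudocount of 0.1, no filter, a filter at 5 FPKM, median-ratio size factors, quantile normalization, the ribosomal split as a covariate or its lower set alone, fits of 2 cell types, the replicate number as a block, and leaving out each sample in turn.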

Additional observations from a re-analysis of the deposited data

Results flagged for a closer look

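Among 29 groups of samples examined for the members, Ldhb and Slc16a7, 10 had a sample that stood apart from the rest of its group by Dixon's test at the 95% level, where chance gives about 1.45. In alpha cells, sample 2 stood apart in Igfbp4 (7.74 FPKM against 0.396 to 0.719 in the others) and in Acot7 (1.04 FPKM against 0 in the others), sample 1 in Cxcl12 (0.428 FPKM against 0) and sample 5 in Ldhb (1.35 FPKM against 7.14 to 10.2). In beta cells, sample 2, the only beta cell sample of the higher ribosomal set, stood apart in Igfbp4 (0.972 FPKM against 0.0297 to 0.142) and Smad3 (3.10 FPKM against 0.00772 to 0.117), and sample 3 in Cxcl12 (0.153 FPKM against at most 0.0218). In delta cells, sample 2 stood apart in Slc16a1 (0.323 FPKM against at most 0.0855), sample 4, which also had the highest summed acinar markers of the delta cells, in Cxcl12 (0.188 FPKM against at most 0.0611), and sample 5 was low in Cat (3.76 FPKM against 5.17 to 6.11). In groups where most samples are listed at 0, any single value stands apart.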

How the results depend on the processing

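The main counts were 1104 genes called for beta versus alpha, 2114 for beta versus delta and 981 for delta versus alpha cells. For beta versus alpha cells the count was 2075 with size factors, 2056 with quantile normalization, 407 in the fit of both cell types alone and 651 to 1698 on leaving out a sample (702 without alpha 2, 696 without beta 1, 1698 without beta 2 and 651 without beta 4). A filter at 5 FPKM gave 1319 for beta versus delta and 518 for delta versus alpha cells, the lower ribosomal set 629 for the latter, and leaving out a sample 1420 to 2643 and 792 to 1115. Members lower in beta cells than in both neighbours numbered 0 with the filter at 5 FPKM or quantile normalization, where 2 members were lower than in delta cells, and 0 to 1 on leaving out a sample. In these fits 1015 of 9184 and 1464 of 14405 genes tested were called lower than in delta cells. Members lower than in alpha cells numbered 2 (Oat and Mgst1) with a pseudocount of 0.1, size factors, quantile normalization, the ribosomal covariate or the lower set, and 1 to 2 on leaving out a sample, against 2 to 4 for delta cells. Over all genes, 965, 983, 1068, 880 and 1173 were called lower than in alpha cells in these settings, beside 695 in the main fit. Genes tested numbered 14041 in the lower set and 14405 in the others. On leaving out a sample, 356 to 1344 genes were lower than in alpha cells and 1156 to 2307 lower than in delta cells. In the lower set the Ldha share differed by -17.1 points between beta and delta cells (exact p = 0.0571) and by 12.997 between delta and alpha cells (exact p = 0.133), the smallest p-values those sample numbers allow; leaving out a sample gave -19.1 to -13.4 and 10.8 to 16.5. Signs turned for Acot7, beta minus alpha, with the covariate (0.0667), Igfbp4, beta minus delta, with a pseudocount of 0.1 (-0.17) or without beta 2 (-0.18, the range on leaving out a sample being -0.18 to 0.14), and Smad3, delta minus alpha, in the lower set (-0.26). The share of calls higher in delta than in alpha cells was 78.3%, 67.8% with size factors and 61.4% with quantile normalization; for beta cells quantile normalization gave 48.1% against alpha and 46.9% against delta cells. Causes were not tested. Same-numbered samples of different cell types correlated at a mean of 0.0761 (other pairs -0.0161), 5 of 13 pairs exceeded 0.1 and 3 of 15 samples correlated best with their own number, so the numbers were not taken to pair samples. Only alpha and beta cells came from the same mouse line. Their same-numbered pairs 1 to 4 correlated at -0.0395, 0.271, -0.152 and 0.0731, which does not settle whether any were sorted together. With the replicate block the counts were 1227, 2001 and 831, and of the members' calls only that of Mgst1 between delta and alpha cells was lost (adjusted p = 0.0831). Unknown depth of the beta cell samples limits every statement on genes listed at 0 there.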
